A study of Bos taurus with 6 samples.

Results

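The IFIT genes and ISG20 are effectors of the interferon response, and their transcripts were compared between longissimus dorsi of Angus cattle and of Chinese Simmental cattle. Longissimus dorsi is the long muscle of the back. The genes were chosen by name: the rows of the deposited table called IFIT2, IFIT3, IFIT5 and ISG20, which are 4 of its 2040 named or numbered genes. All 4 names were found. The choice was not blind, since earlier results of these data were known when these genes and the lists used below were picked. Every gene of the table had also passed the authors' own selection. Their log2 fold changes were at least 1.00 in size, and their adjusted p reached 0.0492 at most. How clearly the breeds separate below was therefore set by the authors' selection, and the tests describe selected genes. Each breed had 3 libraries from cattle aged 18 months, taken at ribs 12 and 13, and the labels name no treatment. Separate animals are not stated for the libraries. The p-values therefore rest on the variation among these 6 libraries, and that variation could be technical.

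Interferons are secreted when a cell senses viral nucleic acid, and they act on neighbouring cells through receptors, the kinases JAK1, JAK2 and TYK2 and the STAT transcription factors. The STAT factors then switch on a large set of genes whose products limit viral replication. IFIT proteins are built from tetratricopeptide repeats, bind RNA and hinder its translation, and in human cells IFIT2 and IFIT3 form complexes with IFIT1. Human IFIT5 binds RNA with an uncapped phosphorylated end on its own. ISG20 is an exonuclease that degrades single-stranded RNA. These genes are low in most resting tissues and are induced strongly in many cell types, leukocytes among them.

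Counts over the listed genes summed to between 12010803 and 15699184 in Angus libraries and to between 12799174 and 28883725 in Chinese Simmental libraries, so the full depth of each library is unknown here. The lowest count of any of the 4 genes was 635 reads, for IFIT5 in Angus replicate 2, with an exact Poisson 95% interval of 587 to 686 that covers counting error only. Below, a normalized count is a count over the size factor that the authors used for its library. FPKM is the authors' value scaled for transcript length and library depth. Of the 22 skeletal muscle fibre markers, 4 were listed in the table, and their normalized counts summed to between 2006 and 3161 in Angus libraries and between 2363 and 4732 in Chinese Simmental libraries. TNNT3, MYBPC2 and NEB were called higher in Angus and RYR1 lower, and MYBPC2 was not called in 3 of the 6 fits that left out 1 library. In counts, which are not per length, these sums lie far below those of leukocyte markers given further on, and the table holds only genes selected for a difference between breeds. The other muscle markers were not among the listed genes and could not be analysed, so the labelled tissue could be checked only in part.

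IFIT3 is not a clean measure of 1 gene. The row IFIT3 and the row LOC100139670, which the authors' annotation describes as IFIT1 of cattle, held identical counts and FPKM in all 6 libraries. IFIT2, IFIT5 and ISG20 shared their counts with no other name. In RefSeq's list of genes for the assembly ARS-UCD2.0, IFIT2, IFIT3, LOC100139670 and IFIT5 follow each other on 1 chromosome, with 1 pseudogene between the last 2 of them, and ISG20 lies on another chromosome. The value called IFIT3 below is thus that of a locus with both names, and reads of IFIT3 and of the IFIT1-like gene cannot be told apart in it. All IFIT genes are paralogs, so reads could also have been split between them by the counting.

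All 4 genes were lower in Angus than in Chinese Simmental, and for all 4 the lowest Chinese Simmental library lay above the highest Angus library. ISG20 and IFIT2 differed most, IFIT3 less and IFIT5 least. The edgeR quasi-likelihood test called 75.0% of the 1989 tested genes lower in Angus, so 4 of 4 is close to what the table's own selection gives. It called 24.9% of them higher in Angus, and 0 of the 4. In 65.9% of all listed genes every Angus library lay below every Chinese Simmental library, and in 24.4% above. The median log2 fold change, Angus minus Chinese Simmental, was -2.88 over the 4 genes and -1.57 over all tested genes. Over the 1492 genes called lower in Angus it was -1.94.

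**Figure D1:**
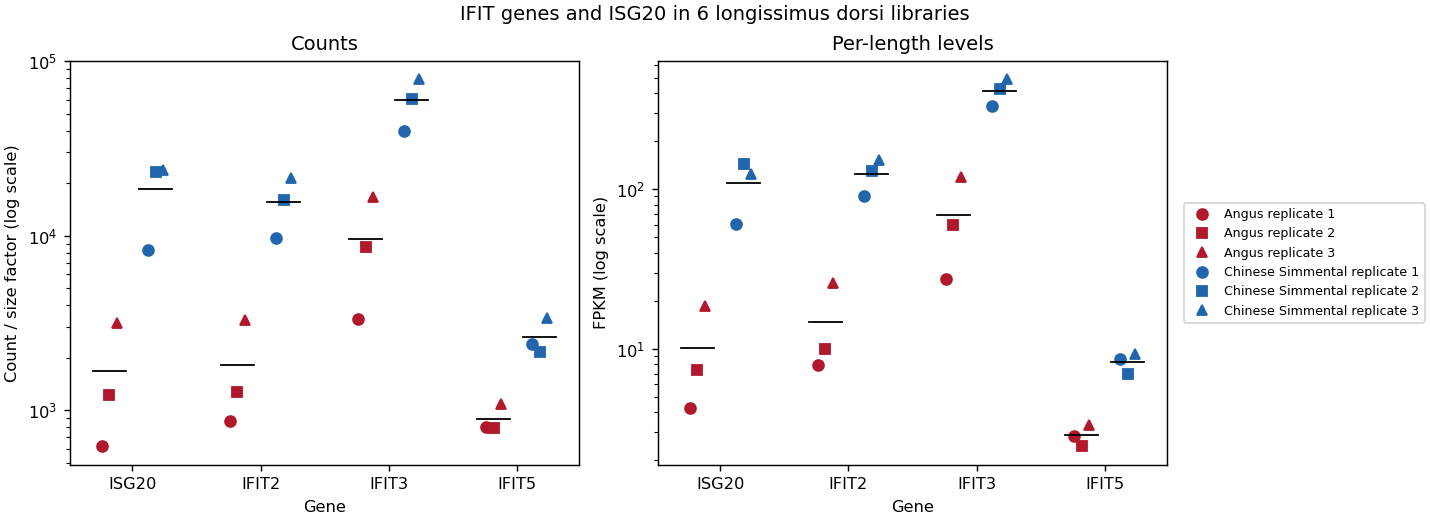
Values of the 4 genes in each library, as counts divided by the authors' size factors (left) and as FPKM (right), both on log axes. Each point is 1 library, with Angus left of Chinese Simmental, and the black line is the mean of 3. In every gene the Chinese Simmental points lie above the Angus points, and Angus replicate 3 is the highest Angus library.

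ISG20, the exonuclease, had normalized counts of 621, 1230.1 and 3169.8 in Angus replicates 1 to 3, against 8315, 23214 and 23821 in Chinese Simmental replicates 1 to 3. Angus replicate 3 stood above its breed, Chinese Simmental replicate 1 stood below its own, and the 2 libraries were still 2.62-fold apart. The mean was 1673 ± 1331 in Angus and 18450.1 ± 8782 in Chinese Simmental (SD, n = 3 each). The log2 fold change was -3.46 ± 0.68 (SE), with adjusted p = 0.00417 in the edgeR quasi-likelihood test and Benjamini-Hochberg adjustment over all tested genes, and all 3 Angus libraries lay below all 3 Chinese Simmental libraries. ISG20 took place 176 of 1989 when the tested genes were ordered from the most negative fold change. Without Angus replicate 3 its log2 fold change became -4.32.

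IFIT2, which promotes apoptosis in human cells besides binding RNA, had normalized counts of 870.4, 1266 and 3306 in Angus replicates 1 to 3, against 9642, 15943 and 21284 in Chinese Simmental replicates 1 to 3. The same 2 libraries, Angus replicate 3 and Chinese Simmental replicate 1, stood closest to the other breed, 2.92-fold apart. Its log2 fold change was -3.11 ± 0.58 (SE; edgeR adjusted p = 0.00372), from a mean of 1814 ± 1307 in Angus and 15623 ± 5827 in Chinese Simmental (SD, n = 3 each). It took place 268 of 1989, and without Angus replicate 3 the log2 fold change became -3.87.

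The IFIT3 locus was the most abundant of the 4, with normalized counts of 3314, 8622 and 16754 in Angus replicates 1 to 3, against 39966, 60882 and 78601 in Chinese Simmental replicates 1 to 3. IFIT3 is known as the partner that stabilises IFIT1 in human cells. Angus libraries were spread 5.06-fold from lowest to highest, and Chinese Simmental libraries 1.97-fold. The log2 fold change was -2.64 ± 0.61 (SE; edgeR adjusted p = 0.00597), with means of 9563 ± 6769 in Angus and 59817 ± 19339.5 in Chinese Simmental (SD, n = 3 each), at place 414 of 1989. Without Angus replicate 3 it became -3.33.

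IFIT5 behaved differently from the other IFIT genes in its spread. Its normalized counts were 803, 793 and 1083 in Angus replicates 1 to 3, against 2384, 2158 and 3371 in Chinese Simmental replicates 1 to 3. The breeds did not overlap, but the gap from the highest Angus to the lowest Chinese Simmental library was only 1.99-fold. The mean was 893 ± 165 in Angus and 2638 ± 645 in Chinese Simmental (SD, n = 3 each), and the log2 fold change was -1.56 ± 0.37 (SE; edgeR adjusted p = 0.00669). At place 1001 of 1989 it lay at the middle of the tested genes, those higher in Angus included. It differed less than the median of -1.94 over the 1492 genes called lower in Angus. Leaving out any 1 library kept its log2 fold change between -1.72 and -1.35.

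Angus libraries differed from each other in 3 of the 4 genes more than was common in this table. The highest Angus library was 5.11-fold above the lowest in ISG20, 3.80-fold in IFIT2 and 5.06-fold in the IFIT3 locus, but 1.37-fold in IFIT5. Over 1880 tested loci the median of that ratio was 1.76. In Chinese Simmental the ratio was 2.86 for ISG20, 2.21 for IFIT2, 1.97 for IFIT3 and 1.56 for IFIT5, against a median of 2.19 over 1897 loci. Summed neutrophil markers had 68133, 64206 and 114340 normalized counts in Angus replicates 1 to 3. They were also highest in Angus replicate 3, but lowest in replicate 2, where ISG20, IFIT2 and IFIT3 were lowest in replicate 1. Summed monocyte and macrophage markers were highest in Angus replicate 1, at 39539, 18676 and 31451 in Angus replicates 1 to 3. The part of either cell type in this spread was not tested.

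Levels between genes were compared per length. The IFIT3 locus had 27.4, 59.6 and 119.5 FPKM in Angus replicates 1 to 3 and 331, 426 and 487 FPKM in Chinese Simmental replicates 1 to 3. It stood first in all 6 libraries, 3.21 to 5.95 times above IFIT2. IFIT2 averaged 14.6 ± 9.89 FPKM in Angus and 124 ± 31.2 FPKM in Chinese Simmental, and ISG20 averaged 10.1 ± 7.56 and 109.6 ± 43.4 FPKM (SD, n = 3 each). IFIT2 lay above ISG20 in 5 of 6 libraries, but their ranges overlapped in both breeds, so the order of these 2 is not beyond their spread. IFIT5 was last in all 6 libraries, at 2.88 ± 0.44 FPKM in Angus and 8.27 ± 1.22 FPKM in Chinese Simmental. The length behind the authors' FPKM can be read from counts divided by FPKM: relative to IFIT2 it was 1.13 for the IFIT3 locus, 1.32 for ISG20 and 2.57 for IFIT5. It moved little between libraries, with a largest range of 1.10 to 1.17 for the IFIT3 locus. Whether the length used for that locus covers 1 gene or both names is unknown here.

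The ratio of 2 genes within a library does not depend on any scaling between libraries, and it separated IFIT5 from the other 3 genes. For each read of IFIT5 there were 0.773, 1.55 and 2.93 reads of ISG20 in Angus replicates 1 to 3, against 3.49, 10.8 and 7.07 in Chinese Simmental replicates 1 to 3. IFIT2 reads per IFIT5 read were 1.08, 1.60 and 3.05 in Angus and 4.04, 7.39 and 6.31 in Chinese Simmental. Both ratios were lower in every Angus library than in any Chinese Simmental library, so the 2 genes differed more between breeds than IFIT5 did. For the IFIT3 locus over IFIT5 the ratio was 4.13, 10.9 and 15.5 in Angus and 16.8, 28.2 and 23.3 in Chinese Simmental, where Angus replicate 3 and Chinese Simmental replicate 1 nearly met.

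The differences in mean log2 ratio, Angus minus Chinese Simmental, were -2.08 for ISG20 over IFIT5, -1.72 for IFIT2 over IFIT5 and -1.33 for IFIT3 over IFIT5. Each had an exact two-sided permutation p of 0.1, the smallest that 3 against 3 libraries allow, and an adjusted p of 0.15 over the 6 pairs compared, so none could pass the threshold. ISG20 over IFIT3 differed by -0.75, with exact permutation p = 0.1 and adjusted p = 0.15, and its groups did not overlap either. ISG20 over IFIT2 and IFIT2 over IFIT3 overlapped between breeds, at differences of -0.36 and -0.39 and exact permutation p = 0.3 for both. Between same-numbered libraries, ISG20 over IFIT2 was lower in Angus in 3 of 3 pairs and IFIT2 over IFIT3 in 2 of 3, with exact paired permutation p = 0.25 and 0.5. The smallest p that 3 pairs allow is 0.25, which the other 4 ratios also had. In Chinese Simmental the ratio of IFIT2 to IFIT3 was nearly the same in all libraries, at 0.241, 0.262 and 0.271, while in Angus it was 0.263, 0.147 and 0.197.

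**Figure D2:**
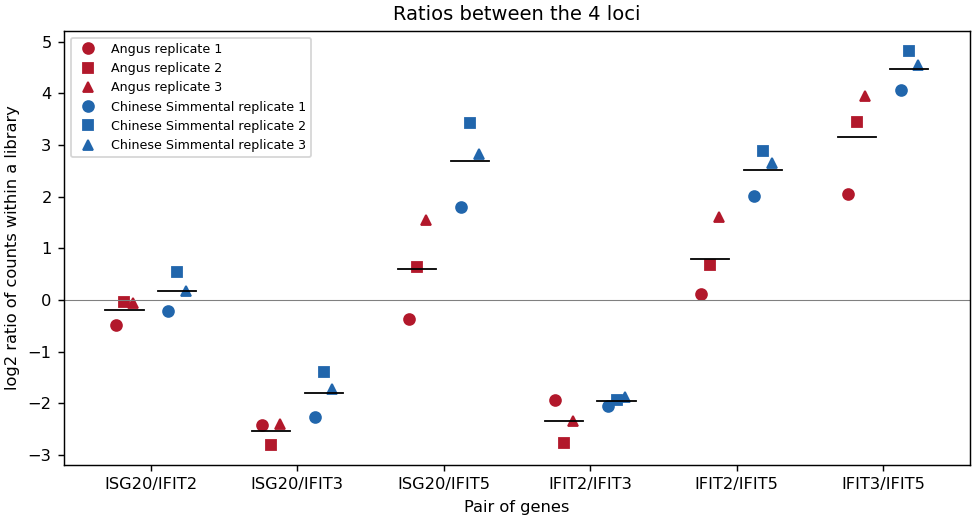
log2 ratio of counts of 2 genes within the same library, for the 6 pairs of the 4 loci, with 1 point per library, Angus left of Chinese Simmental, and the mean of 3 as a black line. The 3 pairs over IFIT5 lie lower in Angus without overlap, and IFIT2/IFIT3 and ISG20/IFIT2 overlap.

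The rest of the interferon pathway was read from lists of effectors, sensors, signalling genes, brakes and chemokines. Of 50 interferon effectors, 19 loci were in the table, the 4 genes above among them, and all 19 were called lower in Angus by the edgeR test, against 75.0% of all tested genes. The median log2 fold change of the other 15 was -1.47, against -1.57 over all tested genes, which include those higher in Angus. Over the 1492 genes called lower in Angus the median was -1.94, a larger difference. The other 15 effectors ran from -3.20 for OASL to -1.08 for DTX3L. Without Angus replicate 2 the number called fell to 12, and with the other libraries left out in turn it was 16 to 18. IFITM3, a membrane protein that blocks entry of enveloped viruses, had 3757, 7089.6 and 12274 normalized counts in Angus replicates 1 to 3, against 38036, 40364 and 41906 in Chinese Simmental replicates 1 to 3 (log2 fold change -2.38 ± 0.48). Like ISG20, IFIT2 and IFIT3 it was highest in replicate 3 among Angus libraries, while its Chinese Simmental libraries were close together. OAS1Y, an oligoadenylate synthetase that shares its counts with the name OAS2, had 1054 ± 196 in Angus and 2979 ± 1274 in Chinese Simmental. Both loci had every Angus library below every Chinese Simmental library.

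GBP4, a guanylate-binding protein, and LAP3, a leucine aminopeptidase induced by interferon-gamma, were among the smaller differences, at log2 fold changes of -1.23 ± 0.45 and -1.23 ± 0.42. GBP4 was not called in 4 of the 6 fits that left out 1 library (Angus replicate 2 or 3, Chinese Simmental replicate 1 or 2), where it stood at -1.22 to -0.97. LAP3 was not called without Angus replicate 1 or 2, at -1.19 to -1.17. APOBEC3Z1, OASL and ISG15 were picked after their values were seen. The cytidine deaminase APOBEC3Z1 had 189 ± 155 normalized counts in Angus and 1305 ± 463 in Chinese Simmental, with a log2 fold change of -2.79 ± 0.71 that became -3.60 without Angus replicate 3. OASL was at -3.20 ± 0.96 with overlapping breeds, and without Chinese Simmental replicate 3 it was no longer called, at -1.84. ISG15, the ubiquitin-like modifier, was at -1.73 ± 0.56, and at -1.45 and not called without the same library.

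**Figure D3:**
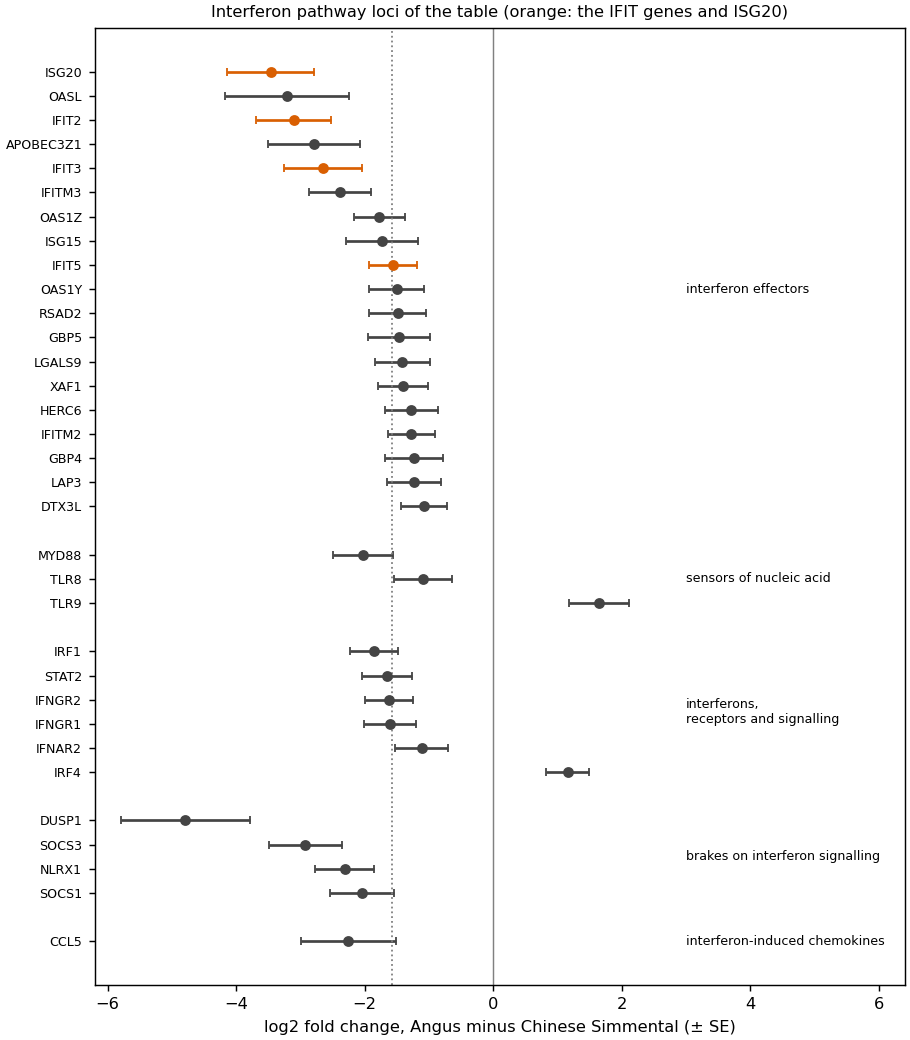
log2 fold change, Angus minus Chinese Simmental, of the tested loci of the interferon lists (of receptors and signalling genes, the 6 with the largest mean FPKM), with the standard error as a bar. Orange points are the IFIT genes and ISG20, the solid line is 0 and the dotted line is the median of -1.57 over all tested genes. All 19 effector loci lie left of 0, and TLR9 and IRF4 lie right of it.

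Among interferons, their receptors and signalling genes, 8 of 27 were listed. Of these, 7 were called lower in Angus and 1 higher, against 75.0% and 24.9% of all tested genes. The receptor chains IFNGR1 and IFNGR2 for interferon-gamma were at log2 fold changes of -1.60 ± 0.41 and -1.62 ± 0.37, and IFNAR2, a receptor chain for type I interferons, at -1.11 ± 0.41. The last call was lost when any library but Chinese Simmental replicate 1 was left out, at -1.25 to -0.83. IRF1, a transcription factor of interferon-induced genes, had 19514 ± 702 normalized counts in Angus and 70598 ± 5544 in Chinese Simmental (SD, n = 3 each; log2 fold change -1.86 ± 0.37). STAT2, part of the factor that binds IFIT promoters, had 5060 ± 433 in Angus and 15932.5 ± 5250 in Chinese Simmental (-1.65 ± 0.39). JAK2, a kinase bound to cytokine receptors, was at -1.11 ± 0.36, with every Angus library below every Chinese Simmental library. It was not called when Angus replicate 1, Angus replicate 2 or Chinese Simmental replicate 3 was left out, at -1.08 to -0.91. IRF4, a factor of lymphocytes, went the other way at 8648 ± 1533 in Angus and 3869 ± 275 in Chinese Simmental, but was not called in the fit that left out Angus replicate 2, at 1.01. IRF1 and STAT2 were steadier between Angus libraries than ISG20, IFIT2 or IFIT3.

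Of 19 sensors of nucleic acid and their adaptors, 3 were listed. MYD88, the adaptor of most Toll-like receptors, was lower in Angus at -2.02 ± 0.47, and TLR9, a sensor of DNA, was higher in Angus at 1.65 ± 0.47. TLR8, a sensor of RNA, was at -1.09 ± 0.45 with overlapping breeds, and was not called in 4 of the 6 fits that left out 1 library (Angus replicate 2 or 3, Chinese Simmental replicate 1 or 3), at -1.12 to -0.66. All 4 listed of 13 brakes on interferon signalling were called lower in Angus, against 75.0% of all tested genes. SOCS3 and SOCS1, inhibitors of JAK kinases, were at -2.92 ± 0.57 and -2.04 ± 0.49. NLRX1, a mitochondrial regulator of antiviral signalling, was at -2.31 ± 0.46. DUSP1, a phosphatase of MAP kinases, was at -4.79 ± 1.00, and at -3.60 without Chinese Simmental replicate 3. Of 7 interferon-induced chemokine genes, 2 were listed. CCL5 was at -2.26 ± 0.74 with overlapping breeds, and was not called when replicate 3 of either breed was left out, at -2.10 to -1.01. CCL8 had 0 reads in each Angus library and 2, 48 and 17 reads in Chinese Simmental replicates 1 to 3, too few to enter the test. Of 12 RNA exonucleases, ISG20 was the 1 listed.

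Markers of myeloid cells were also lower in Angus, and those of B cells higher. Of 18 neutrophil markers, 11 were listed and all 11 were called lower in Angus, against 75.0% of all tested genes, with a median log2 fold change of -3.65. Their normalized counts summed to 64206 to 114340 in Angus libraries, against 652491, 756075 and 1208690 in the Chinese Simmental libraries. Of 18 monocyte and macrophage markers, 9 were listed, also all called lower in Angus, with a median of -2.51 and sums of 39539, 18676 and 31451 in Angus and 227196, 150863 and 372980 in Chinese Simmental. AIF1 and CD86 among them overlapped between breeds. These 2 and the neutrophil marker FCGR3A were each not called in 4 of the 6 fits that left out 1 library. The 10 listed of 12 B cell markers were all called higher in Angus, against 24.9% of all tested genes, with a median of 1.96 and sums of 199984 to 275383 in Angus, against 51944 to 79157 in Chinese Simmental. Of other types, 4 listed of 16 T and natural killer cell markers were all called lower in Angus (median -1.34), against 75.0% of all tested genes. Among them, NCR1 overlapped between breeds. The calls of NCR1 and PRF1 were lost when any library but Chinese Simmental replicate 1 was left out. GZMA was not called without Angus replicate 3 or Chinese Simmental replicate 2. The 4 listed of 16 adipocyte markers were also all called lower in Angus (median -2.53). They summed to 21366 to 47296 in Angus and 142012 to 264156 in Chinese Simmental. Of 5 listed plasmacytoid dendritic cell markers, 3 were called higher in Angus and 2 lower. None of these listed markers was without reads in all libraries. Fewer cells of a type and less RNA per cell cannot be told apart in such bulk samples.

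Relative to the myeloid markers of the same library, ISG20, IFIT2 and the IFIT3 locus overlapped between breeds, and IFIT5 did not. These ratios were added after the values were seen and were not tested. Per 1000 normalized counts of summed neutrophil markers, IFIT2 had 12.8, 19.7 and 28.9 counts in Angus replicates 1 to 3, against 14.8, 21.1 and 17.6 in Chinese Simmental replicates 1 to 3. ISG20 had 9.11, 19.2 and 27.7 in Angus, against 12.7, 30.7 and 19.7 in Chinese Simmental. The ranges of the breeds overlapped in both genes, and the highest Angus value was in replicate 3. IFIT3 had 48.6, 134 and 146.5 in Angus, against 61.3, 80.5 and 65.0 in Chinese Simmental. IFIT5 had 11.8, 12.4 and 9.47 in Angus, against 3.65, 2.85 and 2.79 in Chinese Simmental, so that relative to these markers IFIT5 was higher in every Angus library.

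With the monocyte and macrophage markers as the base, IFIT5 again did not overlap, at 20.3 to 42.5 counts per 1000 in Angus against 9.04 to 14.3 in Chinese Simmental. IFIT2 stood at 22.0 to 105.1 in Angus and 42.4 to 105.7 in Chinese Simmental. The sums rest on few genes, since S100A12, S100A9 and S100A8 made up 77.8% of the neutrophil sum and LYZ, TYROBP and CSF1R 77.6% of the other. Against single markers, the ratio of IFIT5 was higher in every Angus library for 9 of 11 neutrophil markers and 5 of 9 monocyte and macrophage markers. The log2 fold change of IFIT5 was -1.56 and the medians of these markers were -3.65 and -2.51, so higher ratios in Angus largely follow from them. Over all tested genes the median was -1.57, and how often other genes give such ratios was not counted. For IFIT2 and for ISG20 the breeds overlapped against 8 of 11 and 9 of 9 markers, and for the IFIT3 locus against 6 of 11 and 9 of 9. The ratio of the IFIT3 locus was higher in every Angus library for the other 5 neutrophil markers. For IFIT2 and for ISG20 it was higher in every Angus library for 2 neutrophil markers and lower for 1, MMP25. The part of these cells in the breed difference was not tested.

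**Figure D4:**
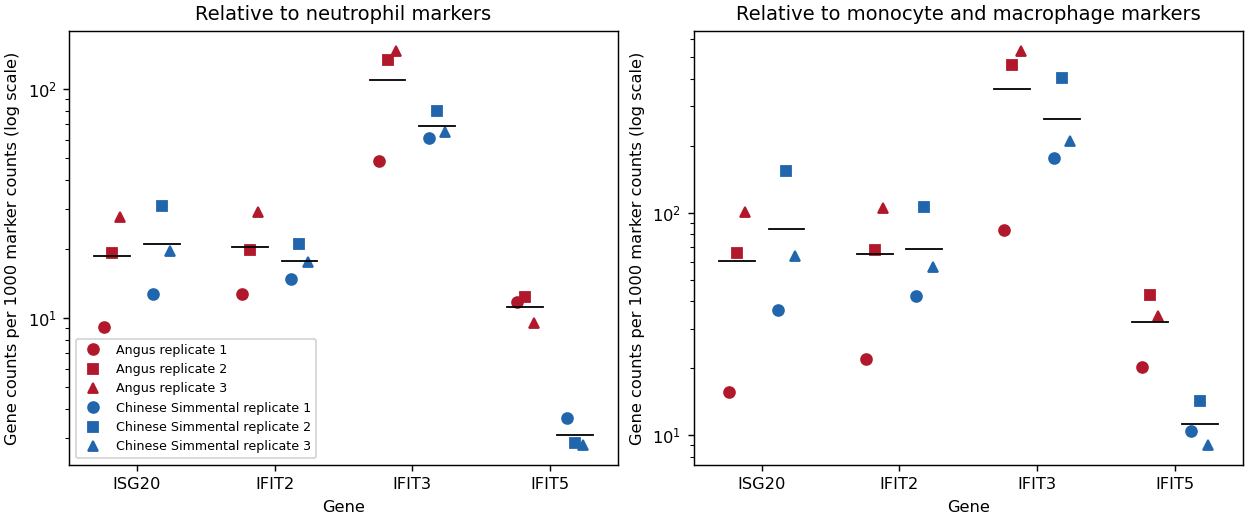
Counts of each gene per 1000 normalized counts of summed neutrophil markers (left) and of summed monocyte and macrophage markers (right) in the same library, on log axes. Points are libraries, Angus left of Chinese Simmental, and black lines are means of 3. IFIT5 lies higher in Angus without overlap in both panels, and the other 3 genes overlap.

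The genes most like each of the 4 were taken as those with the smallest root mean square difference in log2(normalized count + 1), after centring each gene, over the 6 libraries and 1612 named loci. This is a description, since all listed genes were selected for differing between the same libraries. Nearest to ISG20 were MRPS15, a mitochondrial ribosomal protein, WLS, a carrier of Wnt proteins, and CCR1, a chemokine receptor of myeloid cells, at differences of 0.122, 0.159 and 0.167. CCR1 had 1114, 2133 and 4422 normalized counts in Angus replicates 1 to 3, against 12976, 40272 and 48252 in Chinese Simmental replicates 1 to 3, with the same low library in each breed as ISG20. HLX, a homeobox factor, VLDLR, a lipoprotein receptor, and MYBPH, a myosin-binding protein, were nearest to IFIT2 at 0.202, 0.217 and 0.285. The IFIT3 locus was at 0.314 from IFIT2 and ISG20 at 0.318, so the IFIT3 locus took place 5 in the order of genes most like IFIT2. IFIT2 in turn took place 4 for the IFIT3 locus and place 7 for ISG20. Nearest to the IFIT3 locus were SOD2, the mitochondrial superoxide dismutase, SLC39A8, a zinc importer, and C3H1orf162, at 0.275, 0.294 and 0.303. IFIT5 was matched most closely by SERPINB1, an inhibitor of neutrophil proteases, FGD1, an exchange factor for a small GTPase, and SMIM3, at 0.0711, 0.102 and 0.103. From IFIT5 the distances to IFIT3, IFIT2 and ISG20 were 0.903, 0.998 and 1.27.

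The genes flanking the IFIT cluster in the RefSeq order, LIPA beyond IFIT2 and SLC16A12 beyond IFIT5, were also listed and called lower in Angus. A pseudogene and a long non-coding RNA, neither of them a name in the table, lie between LIPA and IFIT2. LIPA, the lysosomal acid lipase, had 1375, 418 and 905 normalized counts in Angus replicates 1 to 3, against 6359, 2482 and 8775 in Chinese Simmental replicates 1 to 3. Its lowest library in each breed was replicate 2, unlike IFIT2. SLC16A12, a transporter, had 41.1, 194 and 314 in Angus and 394, 1369 and 1354 in Chinese Simmental. Its log2 fold change was -2.51 ± 0.75 (SE; edgeR adjusted p = 0.0136), and it became -3.15 without Angus replicate 3. LIPA was at -2.71 ± 0.59 (edgeR adjusted p = 0.00502).

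Directions of the 4 genes held under every setting tried, but 2 calls did not. When TMM, RLE or upper quartile factors taken from the listed genes replaced those of the authors, the median of all log2 fold changes moved by 1.32 to 1.36 toward Angus. ISG20 and IFIT2 were still called lower in Angus, at -2.11 to -2.04 and -1.76 to -1.71. The IFIT3 locus lost its call at -1.30 to -1.24, and so did IFIT5 at -0.24 to -0.20. Among the 19 effectors, HERC6 and DTX3L turned to higher in Angus with these factors, as did JAK2, IFNAR2 and TLR8. The calls that held under all 3 sets of factors were 2 of 19 for the effectors and 2 of 4 for the brakes (SOCS3 and DUSP1). For the signalling genes 1 of 8 held (IRF4) and for the sensors 1 of 3 (TLR9), both higher in Angus. IRF1, STAT2, IFNGR1, IFNGR2 and MYD88 were called under no set of factors. Calls held for 9 of 11 neutrophil markers, 5 of 9 monocyte and macrophage markers and 10 of 10 B cell markers. They held for 0 of 4 T and natural killer cell markers and 1 of 4 adipocyte markers (DGAT2). NCR1 and PRF1 turned to higher in Angus under all 3 sets. LIPA and SLC16A12 were not called under any set, and FCGR3A and CD86 turned to higher in Angus under 1 each. In the authors' deposited table, whose fold changes run the other way (Chinese Simmental over Angus), the log2 values were 3.11 for ISG20, 2.86 for IFIT2, 2.42 for IFIT3 and 1.52 for IFIT5, with adjusted p of 1.19e-07, 4.21e-08, 1.05e-05 and 2.14e-06. These are smaller than the log2 ratios of the authors' own deposited group means, which were 3.46, 3.11, 2.64 and 1.56.

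**Figure D5:**
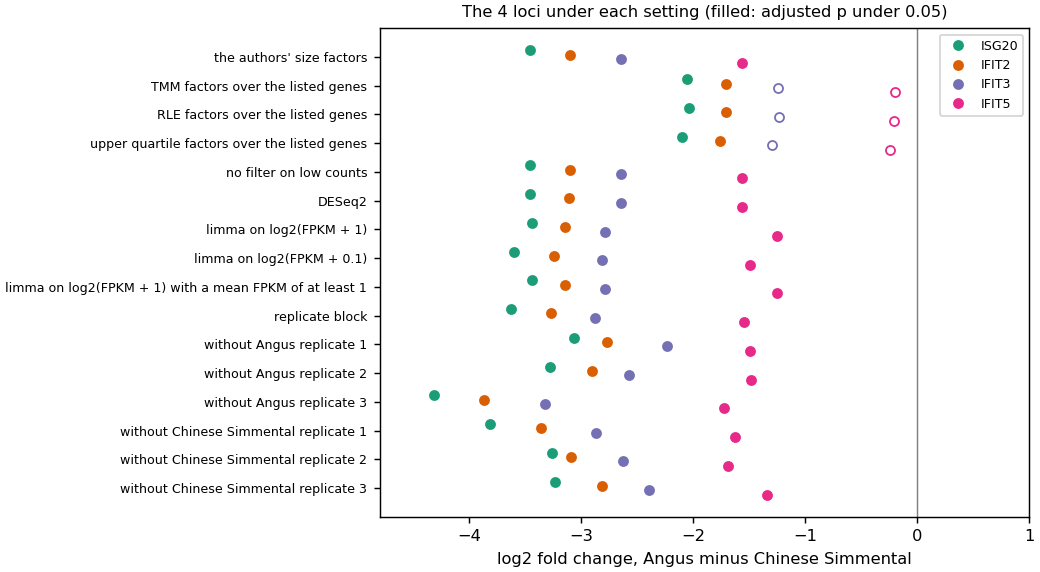
log2 fold change, Angus minus Chinese Simmental, of the 4 loci under each processing setting, 1 line per setting. Filled points have an adjusted p under 0.05 and open points do not. All points lie left of 0, and the open points are IFIT3 and IFIT5 with factors computed over the listed genes.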

How the data were processed

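Total RNA, 1 µg per library, from longissimus dorsi was made into mRNA libraries, 3 per breed, per the labels' protocols. The submitters' processing notes name HISAT2 and the build ARS-UCD1.2. What counted the reads, with which strand setting and annotation, is not given in the sources used here. Per the file headers, the authors deposited counts per gene, FPKM, a mean normalized signal per breed, log2 fold changes and p-values. One blank row (1 of the file) was left out, and 0 per-sample columns were unused. All its genes had passed the authors' selection, and a test over the whole genome was not possible.

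Size factors solved from the deposited group means left a largest relative residual of 1.52e-09. Counts were tested with edgeR 4.0.16 in R 4.3.3 (glmQLFit, glmQLFTest, filterByExpr with a minimum count of 10, breed as the only term, 6 libraries, adjusted p under 0.05), and the tests were tried on simulated data first. Alternatives used TMM, RLE and upper quartile factors, no count filter, DESeq2 1.42.0, limma 3.58.1 on log2(FPKM + 1) or log2(FPKM + 0.1), a minimum mean FPKM of 1, and single libraries left out. Levels of different genes were set against each other, in FPKM, only for the 4 genes of interest. Names with identical counts were tested as separate rows, and counted as 1 locus in the lists. Same-numbered libraries deviated together from their breed means (r = 0.27, 0.16 and 0.25 over tested genes for replicates 1, 2 and 3), so replicate number was also fitted as a block. Angus replicate 3 with Chinese Simmental replicate 2 was at r = 0.22. That pairing comes from the replicate numbers in the titles and these correlations alone.

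The genes and all lists were chosen with earlier results of these data known. Named from each list were up to 6 loci with the largest mean FPKM and, for each of the 4 genes, its 3 nearest patterns. The length implied by counts over FPKM ran from 0.0127 to 12.3 times that of the median locus among listed pathway and marker genes, which affects which loci the rule names. APOBEC3Z1, OASL, ISG15, HERC6, DTX3L, JAK2, TYROBP, LIPA, SLC16A12 and the loci in the closing section were named outside that rule. Some listed genes are not reported here. RefSeq names matched 1773 of 2040 names, as symbols or synonyms. No sequence was used here, and RefSeq coordinates served only to order genes along a chromosome.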

Additional observations from a re-analysis of the deposited data

How the results depend on the processing

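ISG20 and IFIT2 kept their direction and their call in all 15 alternatives, with log2 fold changes (Angus minus Chinese Simmental) of -4.32 to -3.07 and -3.87 to -2.77 when single libraries were left out. The IFIT3 locus and IFIT5 kept both in 12 of 15, at -3.33 to -2.24 and -1.72 to -1.35 without single libraries. With TMM, RLE and upper quartile factors the IFIT3 locus was at -1.25, -1.24 and -1.30 (adjusted p 0.0902, 0.0934 and 0.0728) and IFIT5 at -0.20, -0.21 and -0.24 (adjusted p 0.703, 0.704 and 0.633), so 2, 2 and 2 of the 4 genes and 2, 2 and 2 of the 19 effectors were called. The largest adjusted p over all alternatives was 0.0208 for IFIT2 and 0.0214 for ISG20. These factors centre the selected genes, which are mostly lower in Angus. They left 263, 273 and 289 of 1492 genes called lower in Angus, while 497 were called higher in Angus under each, against 495 with the authors' size factors. The share of calls higher in Angus was then 65.4%, 64.5% and 63.2%, against 24.9%, since calls lower in Angus were lost. Leaving out single libraries gave 291 to 466 genes called higher in Angus (495 with all 6), 1059 to 1423 called lower, and 12 to 18 of the 19 effectors. The lowest of these 3 counts all came without Angus replicate 2. With the replicate block the log2 fold changes were -3.63 for ISG20, -3.27 for IFIT2, -2.88 for IFIT3 and -1.55 for IFIT5. The block changed no call of the 4 genes, and the paired test of the ratios was added after the data were seen. All differences in log2 ratio between the 4 loci kept their sign with FPKM in place of counts and without any 1 library. Depth beyond the listed genes is unknown here, and counting error at the counts of these 4 genes was small beside the spread between libraries.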

Other observations

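The authors' annotation gives further loci of antiviral function, read here after the values were seen. Of 33 loci annotated to response or defence response to virus, 29 were called lower in Angus and 4 higher, which is 87.9% against 75.0% of all tested genes, with a median log2 fold change of -1.73. The 4 genes above are among the 29. Of 23 loci with a term that names type I interferon, interferon-alpha or interferon-beta, 18 were called lower in Angus and 5 higher. Of 42 with a term that names interferon-gamma, 33 were lower and 9 higher. The shares lower were 78.3% and 78.6%. These terms were matched by name, so terms on the making or regulation of interferon could be among them. Of the 4 loci of the virus set that were higher in Angus, 2 were CD40, a receptor of B cells, and TLR9. The others in that set were assembled loci without a symbol. Of 10 loci annotated to negative regulation of viral genome replication, 9 were lower in Angus, 90% against 75.0% of all tested genes and with 1 of the 4 genes above among them. PROX1, a homeobox factor, was higher at 1169 normalized counts in Angus and 281 in Chinese Simmental.

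Of 17 loci whose description names interferon, 16 were called lower in Angus and IRF4 higher, a share of 94.1% against 75.0% of all tested genes. The 4 genes above are among the 16, and IRF2BPL, another of them, turned to higher in Angus with factors computed over the listed genes. A second locus described as IRF4, LOC618409, which shares its counts with the name FOXS1, went the other way at 793 normalized counts in Angus and 1696 in Chinese Simmental. Its call was lost without any 1 Angus library or Chinese Simmental replicate 1, at -1.16 to -0.73, and it turned to higher in Angus with factors computed over the listed genes. LOC112441484, described as IFITM3 of yak, had 7572 in Angus and 37632 in Chinese Simmental. Its log2 fold change was -2.31, beside -2.38 for the row named IFITM3. LOC613699, described as IFITM1, had 25.2 in Angus and 374 in Chinese Simmental, with log2 fold changes of -4.54 without Angus replicate 3 and -2.91 without Chinese Simmental replicate 2. Reads of such near copies could be split by the counting, so these levels are uncertain. Among 8 loci with tetratricopeptide repeats, 7 were lower in Angus, 87.5% against 75.0% of all tested genes and with the 3 IFIT loci among them, and DNAAF4, a factor of cilia assembly, was higher in Angus.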
